A study of Homo sapiens with 4 samples.

Results

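SNORD115 and SNORD116 are 2 families of C/D box small nucleolar RNAs (snoRNAs) encoded as tandem copies in an imprinted region of chromosome 15. Every row of the small RNA (sRNA) table whose symbol begins with SNORD115- or SNORD116- was taken as a copy, which gave 78 copies (48 of SNORD115 and 30 of SNORD116) among 26485 genes. The sRNAs were sequenced from total RNA of HCT116 Drosha k.o. cells. HCT116 is a line of human colon carcinoma, and Drosha is the nuclear nuclease that starts the maturation of most miRNAs. All 4 libraries came from this knock-out, which per the study's methods is a single clone with a homozygous knock-out. Before harvest the cells were infected with an empty lentivirus, pLenti-GIII-CMV-RFP-2A-Puro (vector, 2 libraries), or with the same vector carrying CD95L under the CMV promoter (CD95L, 2 libraries). For HCT116 cells the study's methods name a CD95L mutant, CD95L MUT NP, that does not bind its receptor and has a stop codon behind the start codon. Puromycin at 3 µg/mL served for selection in both groups, and RNA was taken 50 h after the selected cells had been plated, although another label counts the 50 h from puromycin selection. The procedure was done in duplicate, but the step at which the duplicates parted is not given, so every p-value measures a spread that may be technical in part. The titles of both vector libraries carry the mark (# 2), which is not explained, so any batch it stands for and the infection cannot be told apart.

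C/D box snoRNAs carry 2 short conserved elements, the C box near the 5′ end and the D box near the 3′ end, which bind a protein complex that includes the methyltransferase fibrillarin. Most members of the class guide the methylation of ribosomal or spliceosomal RNA through a stretch next to the D box, whereas SNORD116 has no established target and SNORD115 is known for a stretch complementary to the mRNA of the serotonin receptor gene HTR2C. Both families are excised from introns of a long transcript made from the paternal chromosome, are known above all from neurons, and are lost in the deletions that cause Prader-Willi syndrome.

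The copies are so alike that a short read can be assigned to some of them and not to others. The lines below give copies chosen to show this, read from hg38 at the positions of GENCODE version 44, all on the plus strand, with the C box letters TGATGA (searched in the first 20 bases) and the D box letters CTGA (searched in the last 20 bases) in capitals. SNORD116-17 (chr15:25083588-25083679) has an identical twin in SNORD116-19, and SNORD116-22 (chr15:25089923-25090014) differs from both by A23G, counted from 1 at the 5′ end with the base of SNORD116-17 first.
SNORD116-17: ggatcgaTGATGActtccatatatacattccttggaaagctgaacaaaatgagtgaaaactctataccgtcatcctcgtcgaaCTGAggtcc
SNORD116-22: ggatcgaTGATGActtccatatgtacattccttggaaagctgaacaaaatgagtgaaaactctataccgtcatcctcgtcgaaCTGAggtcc
SNORD116-16 (chr15:25082768-25082859), SNORD116-24 (chr15:25094037-25094128) and SNORD116-29 (chr15:25106521-25106603) are other copies with many reads, and SNORD116-28 (chr15:25104642-25104732) lacks the C box letters.
SNORD116-16: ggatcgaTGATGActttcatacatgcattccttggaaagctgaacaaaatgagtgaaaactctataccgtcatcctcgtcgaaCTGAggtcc
SNORD116-24: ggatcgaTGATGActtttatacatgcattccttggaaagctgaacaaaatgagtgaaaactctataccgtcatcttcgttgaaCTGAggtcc
SNORD116-29: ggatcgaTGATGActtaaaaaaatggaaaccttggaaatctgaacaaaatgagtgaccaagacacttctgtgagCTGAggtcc
SNORD116-28: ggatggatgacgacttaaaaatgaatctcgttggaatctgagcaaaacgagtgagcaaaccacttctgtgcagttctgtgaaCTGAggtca
Among the SNORD115 copies, SNORD115-11 (chr15:25189414-25189495) is identical to SNORD115-29, SNORD115-36 and SNORD115-43. SNORD115-32 (chr15:25228967-25229048) and SNORD115-10 (chr15:25187536-25187616) had the highest levels. SNORD115-48 (chr15:25269783-25269858) is the last copy at the 3′ end of the array, and SNORD115-45 (chr15:25264510-25264590) lacks the letters of both boxes.
SNORD115-11: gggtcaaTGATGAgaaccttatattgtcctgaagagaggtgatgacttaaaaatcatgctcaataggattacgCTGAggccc
SNORD115-32: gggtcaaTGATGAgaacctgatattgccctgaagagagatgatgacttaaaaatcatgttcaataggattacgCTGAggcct
SNORD115-10: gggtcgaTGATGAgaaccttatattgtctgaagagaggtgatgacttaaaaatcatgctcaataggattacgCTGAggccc
SNORD115-48: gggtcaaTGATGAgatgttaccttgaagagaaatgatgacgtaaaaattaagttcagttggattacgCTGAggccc
SNORD115-45: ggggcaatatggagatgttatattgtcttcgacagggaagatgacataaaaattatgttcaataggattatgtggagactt

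The values were deposited as reads of a gene per 1000000 reads assigned to genes (CPM). They came out as whole multiples of what 1 read is worth in each library, and the libraries held 24915394 (vector replicate 1), 25163566 (vector replicate 2), 22897068 (CD95L replicate 1) and 22488145 reads (CD95L replicate 2). A copy with no read in a library may therefore have up to 0.119 to 0.133 CPM, the level of 3 counts. The vector libraries were unlike each other in these snoRNAs, as given below, so results are given with and without vector replicate 1. Where a gene has 4 values, the vector libraries come first and the CD95L libraries second, each in the order of replicates 1 and 2. The epithelial and colon marker list summed to 137 to 143 CPM in vector and 132 to 133 CPM in CD95L libraries, most of it KRT8 and KRT18 (45.0 to 61.5 CPM), while EPCAM, CDH1 and CDX2 had 1.31 to 4.89 CPM. All 11 of its genes had a read, but so did all 6 endothelial and all 7 leukocyte markers, so detection alone did not tell cell types apart in these sRNA fragments.

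Reads of the SNORD116 and SNORD115 families were few in all libraries, were highest in vector replicate 1 and lowest in the CD95L libraries. The 30 SNORD116 copies together had 91.0 CPM in vector replicate 1 (2267 reads, exact 95% Clopper-Pearson interval 87.3 to 94.8 CPM) and 10.6 CPM in vector replicate 2 (267 reads, 9.38 to 12). They had 1.70 CPM in CD95L replicate 1 (39 reads, 1.21 to 2.33) and 1.07 CPM in CD95L replicate 2 (24 reads, 0.684 to 1.59). The 48 SNORD115 copies together had 70.6 CPM (1759 reads, 67.3 to 74.0), 7.11 CPM (179 reads, 6.11 to 8.24), 1.40 CPM (32 reads, 0.956 to 1.97) and 0.889 CPM (20 reads, 0.543 to 1.37) in the same order. In both families each vector library lay above both CD95L libraries, with intervals that did not touch, and the intervals of the CD95L libraries overlapped each other. Such intervals account for counting error alone, because reads that are PCR copies of 1 molecule are not independent. In sRNA of whole cultures, fewer cells with these RNAs and less RNA per cell cannot be told apart.

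**Figure D1:**
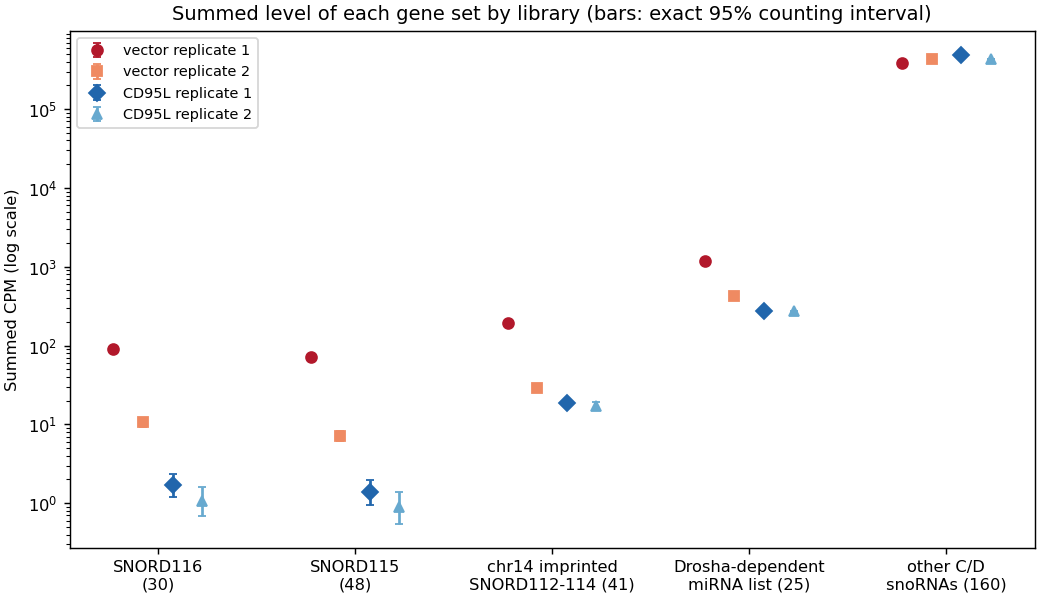
Summed CPM (log scale) of SNORD116, SNORD115, the imprinted SNORD112 to SNORD114 snoRNAs of chromosome 14, a list of Drosha-dependent miRNAs and all other C/D box snoRNAs in each of the 4 libraries. Bars are exact 95% Clopper-Pearson intervals, and the number of genes is in parentheses. SNORD116 lies at 91.0 CPM in vector replicate 1, 10.6 CPM in vector replicate 2 and 1.70 and 1.07 CPM in the CD95L libraries, while the other C/D box snoRNAs lie between 388485 and 490059 CPM.

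The mean of the summed SNORD116 level was 50.8 ± 56.8 CPM (SD, n = 2) in vector and 1.39 ± 0.450 CPM (SD, n = 2) in CD95L cells, a ratio of 36.7. For SNORD115 it was 38.9 ± 44.9 CPM (SD, n = 2) and 1.14 ± 0.359 CPM (SD, n = 2), a ratio of 34.0. With vector replicate 2 as the only vector library the ratios were 7.66 and 6.22, and with vector replicate 1 they were 65.7 and 61.7. On the scale log2(CPM + 1) the difference of CD95L from vector was -3.79 for SNORD116 and -3.50 for SNORD115. The two-sided exact permutation test gave p = 0.333 for each, the smallest value that 2 against 2 libraries allow, so these sums could not pass a threshold of 0.05 in this design.

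The SNORD116 copies have been divided by position into group I (copies 1 to 9), group II (copies 10 to 24) and group III (copies 25 to 30). Group II held most of the reads, at 62.7, 7.23, 1.27 and 0.756 CPM. Group III had 18.5, 2.42, 0.306 and 0.178 CPM, and group I 9.75, 0.954, 0.131 and 0.133 CPM. The order of the groups was II, III and I in every library, although group I rested on 3 reads in each CD95L library, a count with an interval that reaches from 0.027 to 0.383 CPM in CD95L replicate 1. The ratio of vector replicate 2 to the CD95L mean was 7.21 in group I and 7.15 in group II, and higher still in group III, so the low level in CD95L libraries was seen in each stretch of the array.

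Of the 78 copies, 44 had a read in at least 1 library (18 of SNORD116 and 26 of SNORD115) and 34 were at 0 in all of them (12 and 22). Of the 44 copies, 42 were highest in vector replicate 1, where 28.7% of all 24532 genes with a read were highest. The exceptions were SNORD116-10, with 1 read in all, and SNORD116-30, with 3 reads in all, each in vector replicate 2. In 30 of the 44 copies (13 of SNORD116 and 17 of SNORD115) both vector libraries lay above both CD95L libraries, against 16.8% of genes with a read. In 10 copies all reads came from vector replicate 1, so these entered the 44 through that library and could only be highest there. The count of 42 is therefore set in part by the choice of copies with a read. A read was seen for 42 copies in vector replicate 1, 34 in vector replicate 2 and 19 in each CD95L library, and no copy had more than 12 reads in a CD95L library.

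**Figure D2:**
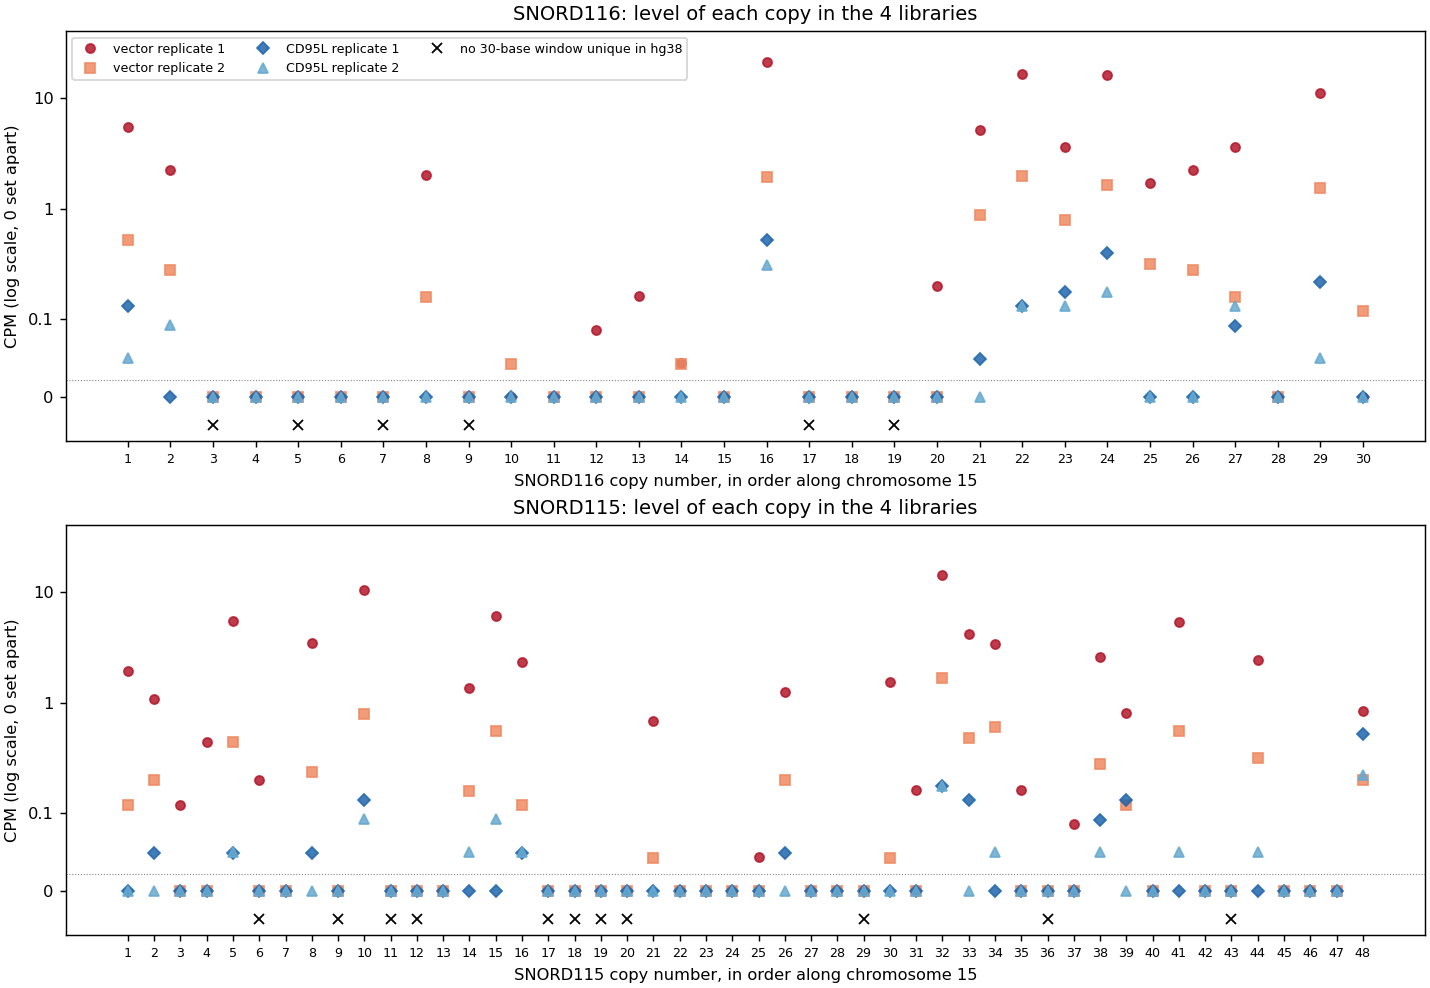
CPM (log scale, with 0 set apart under the dotted line) of the 30 SNORD116 and the 48 SNORD115 copies in array order in each of the 4 libraries, with crosses under copies that hold no 30-base window found once in hg38. In 42 of the 44 copies with a read vector replicate 1 is highest, and levels reach 20.9 CPM in SNORD116-16 and 14.3 CPM in SNORD115-32.

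SNORD116-16 had 20.9 and 1.91 CPM in vector and 0.524 and 0.311 CPM in CD95L libraries. SNORD116-22 had 16.4 and 1.95 against 0.131 and 0.133 CPM, and SNORD116-24 had 16.2 and 1.63 against 0.393 and 0.178 CPM. The groups did not overlap in any of the 3, all of which lie in group II and differ from one another in a handful of bases. SNORD116-29, the group III copy with the most reads and a shorter sequence than the other SNORD116 copies shown, had 11 and 1.55 against 0.218 and 0.0445 CPM. SNORD116-1, the first copy of the array, had 5.50 and 0.517 against 0.131 and 0.0445 CPM. In both copies CD95L replicate 2 held 1 read, and the groups again did not overlap. SNORD116-21 had 5.18 and 0.874 against 0.0437 and 0 CPM, and SNORD116-23 had 3.57 and 0.795 against 0.175 and 0.133 CPM. SNORD116-23 showed the smallest gap between the vector libraries among the 7 named SNORD116 copies.

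SNORD115-32 had 14.3 and 1.67 CPM in vector and 0.175 and 0.178 CPM in CD95L libraries. SNORD115-10 had 10.4 and 0.795 against 0.131 and 0.0889 CPM, and SNORD115-15 had 6.02 and 0.556 against 0 and 0.0889 CPM. The CD95L values of these copies stood for 0 to 4 reads, at or near the level of 3 counts. SNORD115-5 had 5.50 and 0.437 against 0.0437 and 0.0445 CPM, and SNORD115-41 had 5.34 and 0.556 against 0 and 0.0445 CPM. SNORD115-33 had 4.17 and 0.477 against 0.131 and 0 CPM, and SNORD115-34 had 3.41 and 0.596 against 0 and 0.0445 CPM. In all 7 copies vector replicate 1 was far above vector replicate 2, which in turn was above both CD95L libraries.

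Levels can be compared between copies only per length, and only as far as reads can be told apart. Per 100 bases, the mean over the 4 libraries was 6.43 CPM for SNORD116-16, 5.05 CPM for SNORD116-22, 5.00 CPM for SNORD116-24, 4.98 CPM for SNORD115-32, 3.86 CPM for SNORD116-29 and 3.51 CPM for SNORD115-10. The other 8 named copies lay between 1.24 CPM (SNORD115-34) and 2.06 CPM (SNORD115-15). These means rested almost wholly on vector replicate 1, and the copies differ in how much of their sequence is unique, so their order is not one of abundance.

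The 14 copies named above were those with a mean of at least 1 CPM, the filter for the test across 16127 genes. Each of them passed this filter through vector replicate 1, so their being lower in CD95L cells follows in part from the filter and their count is no support for it. With limma on log2(CPM + 1) and Benjamini-Hochberg adjustment over all genes, 0 of the 14 copies passed a threshold of 0.05, and 1 gene in all did (0.00620%), which was higher in CD95L cells, so that 0% of genes were called lower. The largest difference was that of SNORD116-22, which was -2.66 ± 0.59 (SE, limma adjusted p = 0.381), and the smallest that of SNORD116-23, -1.31 ± 0.37 (SE, limma adjusted p = 0.783). At an unadjusted limma p under 0.05 all 14 were lower, against 2.52% of genes. On the reads recovered from the CPM steps, edgeR's quasi-likelihood test called all 14 copies lower (0.397% of genes) and DESeq2 called 6 (0.186%), namely SNORD116-21, SNORD116-22, SNORD116-23, SNORD115-5, SNORD115-32 and SNORD115-34. limma called 2 copies with TMM factors (0.167% of genes), 3 with DESeq2 size factors (0.186%) and 1 with a mean-variance trend (0.174%).

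The edgeR differences rested on CD95L counts close to 0. SNORD116-22 had an edgeR log2 difference of -6.01 (adjusted p = 9.47e-05), SNORD116-29 one of -5.46 (adjusted p = 0.000356) and SNORD115-32 one of -5.41 (adjusted p = 0.000227). Without vector replicate 1, edgeR called 4 copies lower (0.186% of genes). These were SNORD116-22 (-3.86, edgeR adjusted p = 0.00264), SNORD116-21 (-5.03, edgeR adjusted p = 0.0183), SNORD116-29 (-3.52, edgeR adjusted p = 0.0219) and SNORD115-32 (-3.23, edgeR adjusted p = 0.0331). SNORD116-16, the copy with the most reads, then had a log2 difference of -2.19 (edgeR adjusted p = 0.39) and did not pass. Without vector replicate 2, edgeR called all 14 (0.508% of genes), and without CD95L replicate 1 or CD95L replicate 2 it called 0 (0% and 0.0124% of genes). Leaving out a library left 1 library in its group, which was then assumed to vary like the other group, so that without vector replicate 1 the spread came from the CD95L libraries alone and the wide gap between the vector libraries did not enter. The calls of single copies thus depended on which libraries were used.

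The gap between the vector libraries was about as wide in one family as in the other. The CPM in vector replicate 1 was 8.58 times that in vector replicate 2 for SNORD116 (exact 95% interval 7.55 to 9.77) and 9.92 times for SNORD115 (8.51 to 11.6), and these intervals overlapped. Among the 24 copies with at least 40 reads in vector replicate 1 the ratio ran from 4.49 in SNORD116-23 (2.74 to 7.71) to 22.7 in SNORD116-27 (8.57 to 85.2), with a median of 9.41. These copies were chosen for their reads in vector replicate 1, the numerator of the ratio, so ratios above 1 were favoured by the choice. The imprinted C/D box snoRNAs of chromosome 14 had a ratio of 6.73 (6.23 to 7.29), and the list of Drosha-dependent miRNAs had 2.77 (2.71 to 2.83). All other C/D box snoRNAs together had 0.889 (0.888 to 0.889), so the higher level in vector replicate 1 was not shared by the class as a whole.

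**Figure D3:**
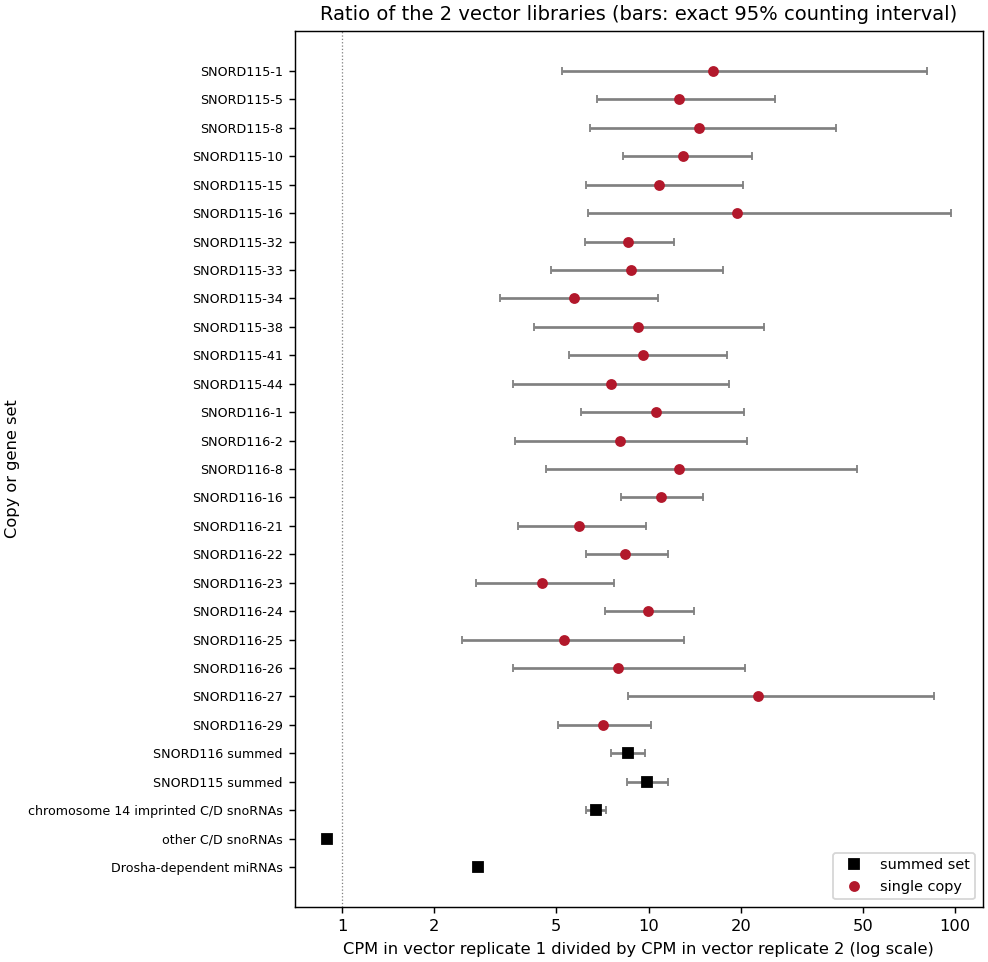
Ratio of the CPM in vector replicate 1 to that in vector replicate 2 (log scale) for the 24 copies with at least 40 reads in vector replicate 1 and for 5 summed gene sets, with exact 95% counting intervals as bars. The 24 copies, chosen for a high count in vector replicate 1, lie between 4.49 and 22.7, the summed SNORD116 and SNORD115 at 8.58 and 9.92, and the other C/D box snoRNAs at 0.889.

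The makeup of each family, as the share of its reads held by each copy, can be compared between libraries whatever their totals. SNORD116-16 held 23% of SNORD116 reads in vector replicate 1 (exact Clopper-Pearson 95% interval 21.3 to 24.8%), 18% in vector replicate 2 (13.6 to 23.1%), 30.8% in CD95L replicate 1 (17.0 to 47.6%) and 29.2% in CD95L replicate 2 (12.6 to 51.1%). The 5 copies with the highest means held 76.9, 71.2, 82.1 and 66.7% of SNORD116 reads in the same order, and the 5 leading SNORD115 copies held 58.8%, 56.4%, 25% and 50% of SNORD115 reads. At 39 and 24 reads in the CD95L libraries, a change in the makeup of SNORD116 was not detectable in its leading copy.

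SNORD115-48 took a different share of its family's reads in the vector and CD95L libraries, and was singled out after its values were seen. It had 0.843 and 0.199 CPM in vector libraries (21 and 5 reads) and 0.524 and 0.222 CPM in CD95L libraries (12 and 5 reads). As in the other SNORD115 copies with a read vector replicate 1 was highest, but the groups overlapped, with vector replicate 2 the lowest library. Its share of SNORD115 reads was 1.19% in vector replicate 1 (0.740 to 1.82%) and 2.79% in vector replicate 2 (0.913 to 6.40%), but 37.5% in CD95L replicate 1 (21.1 to 56.3%) and 25% in CD95L replicate 2 (8.66 to 49.1%). The intervals of each vector library lay below those of both CD95L libraries. As its own level overlapped between the groups, the larger share went with the lower reads of the other SNORD115 copies. SNORD115-32, in contrast, held 20.3% (18.4 to 22.3%), 23.5% (17.5 to 30.4%), 12.5% (3.51 to 29.0%) and 20% (5.73 to 43.7%), with intervals that overlapped throughout. SNORD115-48 did not reach a mean of 1 CPM and was not tested. It overlaps an exon of SNHG14, the long host transcript, and whether its reads came from the snoRNA or the host was not tested. Its sequence, shown above, was 15 edits away from the nearest other copy and all of its 30-base windows were found once in hg38. Its neighbours SNORD115-45, SNORD115-46 and SNORD115-47 were further from their nearest copies (21, 23 and 26 edits) and had no read.

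Whether a copy had reads went with whether any of its sequence is its own. Each copy was cut into all overlapping windows of 30 bases, and each window was searched in both strands of hg38. No such window was unique in 17 copies, and 16 of these had no read in any library. The exception was SNORD115-6, with 5 reads in vector replicate 1. The 15 copies that are identical to another copy over their whole length, SNORD116-17 and SNORD115-11 among them, all had no read. Of the 61 copies with a unique window, 43 had a read. How reads that match several copies were counted is not given in the sources used here, so a value of 0 for these copies says only that no read was assigned to them.

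Copies a single base apart ranged from many reads to none. SNORD116-22, which differs from SNORD116-17 by A23G and has 36.5% unique windows, had 408 reads in vector replicate 1. SNORD116-21, which differs from SNORD116-17 by T20C and has 31.7% unique windows, had 129 reads. SNORD116-18, which differs from SNORD116-17 by A19T and has 30.2% unique windows, had none. SNORD115-26 had 31 reads in vector replicate 1 with only 1.89% of its windows unique, and SNORD115-5, with 5.66%, had 137. The share of unique sequence therefore did not order the copies that had reads.

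**Figure D4:**
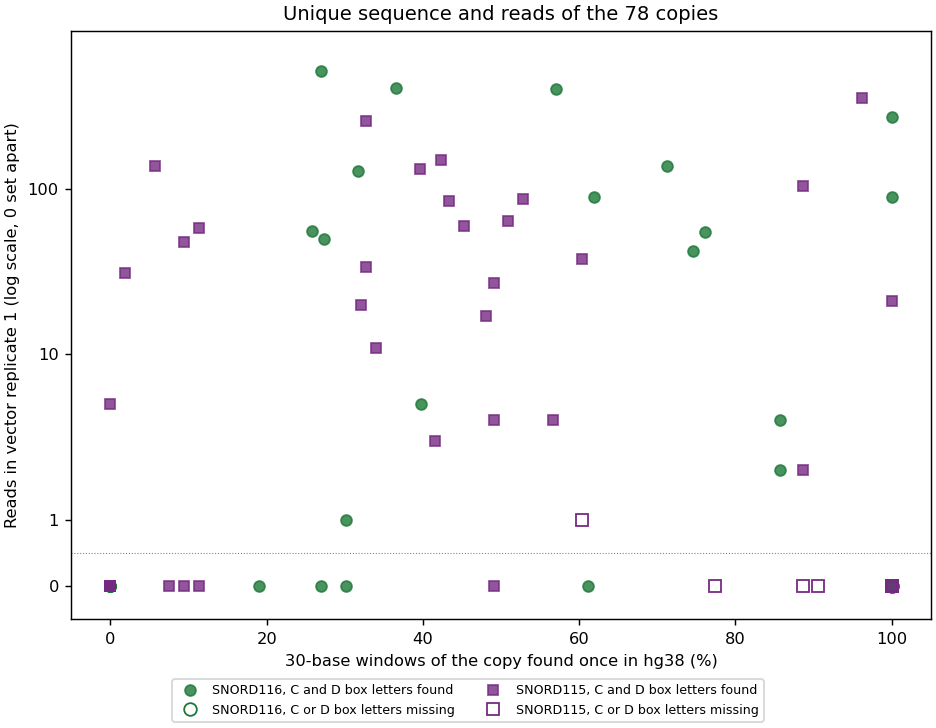
Reads in vector replicate 1 (log scale, with 0 set apart under the dotted line) against the percentage of a copy's 30-base windows found once in hg38 for all 78 copies, with open symbols for copies that lack the C box or D box letters. Of the 17 copies with no unique window 16 lie at 0 reads, as do most of the open symbols at the right.

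The boxes gave a further description of the copies without reads. The letters TGATGA in the first 20 bases and CTGA in the last 20 bases, searched in the transcribed strand only, were both present in 68 of the 78 copies (87.2%) and in 128 of 235 other SNORD transcripts of GENCODE (54.5%). The 10 copies that lacked either were SNORD116-28, SNORD116-30, SNORD115-7, SNORD115-24, SNORD115-25, SNORD115-27, SNORD115-28, SNORD115-45, SNORD115-46 and SNORD115-47. All 10 had unique windows, so reads from these windows could be told apart from other places in hg38. SNORD116-28, SNORD116-30, SNORD115-7, SNORD115-45 and SNORD115-46 also overlap an exon of SNHG14, the long host transcript. Whether reads there could be counted for the copy is not known. Of these 10 copies, 8 had no read, SNORD116-30 had 3 reads and SNORD115-25 had 1. Of the 51 copies with both boxes and a unique window, 41 had a read. A missing match says only that these letters are not in the windows searched.

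The stretch of SNORD115 that is complementary to HTR2C was found in full in 29 of the 48 copies, 18 of which had a read. It reads ATGCTCAATAGGATTACG in the snoRNA, ends at the D box, and pairs with chrX:114848122-114848139 (hg38), within an exon of HTR2C, which lies on the plus strand. SNORD115-10, SNORD115-5 and SNORD115-15 carry all 18 bases. Matches were measured as the longest run of bases without a mismatch. In SNORD115-32, the SNORD115 copy with the most reads, this run is 14 bases. There C59T, counted against SNORD115-11, changes a base within the stretch, and its other bases are kept. In SNORD115-48 the longest run is 9 bases, at another place of HTR2C. The copies with reads were therefore a mixture of copies with the full stretch and copies in which it is changed. Fragments of HTR2C itself were at 1.77 and 2.46 CPM in vector against 1.31 and 2.62 CPM in CD95L libraries, with overlapping groups and a limma difference of -0.10 (adjusted p = 0.98).

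Among the other genes of the imprinted region, none that was tested was called. Of 24 genes listed for it, 22 were matched in the table, 9 were tested, and 0 passed with limma, edgeR or DESeq2, with 0 at an unadjusted limma p under 0.05. The genes not matched were PWAR6 and SNHG14, the long host transcript of the snoRNAs, so the level of the host could not be read. IPW, a noncoding RNA gene between the SNORD116 and SNORD115 arrays, had 17.7 and 15.5 CPM in vector against 16.6 and 25.1 CPM in CD95L libraries. MAGEL2, a ubiquitin ligase cofactor gene upstream of the arrays, had 13.0 and 13.6 against 14.2 and 20.9 CPM. UBE3A, a ubiquitin ligase gene downstream of them, had 20.1 and 19.8 against 14.6 and 17.0 CPM, and its limma difference of -0.32 did not pass (adjusted p = 0.932). SNRPN, at the 5′ end of the transcript that hosts the snoRNAs, had 0 to 0.175 CPM. The C/D box snoRNAs SNORD64, SNORD107, SNORD108, SNORD109A and SNORD109B of the same region had no read assigned in any library. In contrast to the snoRNA copies, vector replicate 1 did not stand apart in IPW, MAGEL2 or UBE3A.

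Among the genes for proteins that assemble C/D box snoRNAs, none was called. Fragments of 10 genes for these proteins summed to 98.6 and 93.2 CPM in vector against 96.2 and 93.8 CPM in CD95L libraries, and 0 of 10 passed with limma, edgeR or DESeq2 (0 at an unadjusted limma p under 0.05). Of the 138 other C/D box snoRNAs tested, 0 passed with limma, edgeR or DESeq2 and 2 had an unadjusted limma p under 0.05. Their sum of 388485, 437174, 490059 and 435257 CPM had overlapping groups and dwarfed that of SNORD115 and SNORD116 (exact permutation p = 0.667, n = 2 per group).

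Other RNAs did move in the same order of libraries. The 41 imprinted C/D box snoRNAs of chromosome 14 (SNORD112 to SNORD114), a tandem array like those described here, had 196 and 29.1 CPM in vector against 18.6 and 17.3 CPM in CD95L libraries. Of the 11 tested, edgeR called 5 lower in CD95L cells (0.397% of all genes) and DESeq2 1 (0.186%), while limma called 0. There the ratio of vector replicate 2 to the CD95L mean was 1.62, against 7.66 for SNORD116 and 6.22 for SNORD115. A list of 25 Drosha-dependent miRNAs, which intact Drosha would be needed to make, had 1179, 426, 278 and 271 CPM. Of the 20 tested, edgeR called 15 lower and DESeq2 8, against the same shares of all genes, and limma called 0. Both lists were chosen with earlier results of these data known, and high values in vector replicate 1 helped their genes pass the filter. The counts of calls are therefore no support for a lower level in CD95L cells. Whether the SNORD115 and SNORD116 reads share a source with these miRNAs was not tested.

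Markers of other cell types were read beside the snoRNAs because both families are known from brain. Of 24 neuronal and glial markers in the table, 19 had a read, and 5 (MIR124-1, MIR124-2, MIR124-3, MIR9-2 and MIR137) were at 0 in all libraries. MIR9-1 reached 0.119 CPM and MIR9-3 0.0401 CPM, at or under the level of 3 counts, and MIR129-2 had 0.722 and 0.199 CPM in vector and no read in CD95L libraries. SNAP25, a gene of the synaptic vesicle machinery, had 1.04 and 1.03 against 0.218 and 0.133 CPM and was not tested. In 7 of the 19 markers with a read, SNAP25 among them, both vector libraries lay above both CD95L libraries, against 16.8% of genes with a read. Other markers did not follow this order. STMN2 was higher in both CD95L libraries (0.642 and 0.596 against 0.786 and 1.47 CPM), and the groups overlapped in MBP, ELAVL3, ELAVL4, SYT1, GFAP and RBFOX3. The list summed to 1377 to 1605 CPM in vector and 1106 to 1328 CPM in CD95L libraries, almost all of it NEFL, and the groups did not overlap. MIR128-1 (5.22 and 0.954 against 0.131 and 0.489 CPM) and MIR128-2 (3.97 and 0.715 against 0.0437 and 0.0445 CPM) had the same order of groups as the snoRNAs. Of the 10 tested, edgeR called these 2 lower (0.397% of all genes) and DESeq2 called 2 (37 of all genes), while limma called 0. Of 6 endothelial markers all 6 had a read, with sums of 62.9 to 97.9 CPM in vector and 49.9 to 73.0 CPM in CD95L libraries, and MIR126 was at 35.0 and 6.48 against 1.48 and 0.711 CPM. MIR126 was called lower by edgeR (adjusted p = 6.48e-05, 0.397% of all genes), the only call among the 5 tested, while limma and DESeq2 called 0. Fibroblast markers (9 of 13 with a read) summed to 33.1 and 23.5 against 36.9 and 40.8 CPM and leukocyte markers (7 of 7) to 9.71 and 6.80 against 7.42 and 12.3 CPM, the first higher in both CD95L libraries and the second with overlapping groups. Of the 5 fibroblast markers tested, edgeR called COL1A2 higher in CD95L cells (adjusted p = 0.0161, 72 calls over all genes). COL1A2 had 4.58 and 4.97 against 11.1 and 11.9 CPM. DESeq2 called 1 of these 5, and no leukocyte marker was called. The part of these markers in the SNORD115 and SNORD116 levels was not tested.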

How the data were processed

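Total sRNA of HCT116 Drosha k.o. cells was sequenced in 2 vector and 2 CD95L libraries. The authors trimmed reads with TrimGalore, aligned them to hg38 with TopHat (Bowtie2 is also named in the submitters' processing notes), counted them per gene with HTSeq and deposited CPM values. Versions, gene annotation, read lengths and the counting of reads with several matches are not given in the sources used here. Also deposited was the authors' own edgeR comparison (mean log2 CPM, log2 fold change and p-values, as deposited), which was not used.

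All library columns were used. Each CPM column summed to 1000000, and 100% of values were whole multiples of 1 read within 0.01 reads. limma 3.58.1 (R 4.3.3) was run on log2(CPM + 1) after 16127 genes had passed a minimum mean of 1 CPM, with no trend and Benjamini-Hochberg adjustment. edgeR 4.0.16 and DESeq2 1.42.0 on the recovered reads, pseudocounts of 0.1 and 5 CPM, no filter, TMM factors, DESeq2 size factors, a mean-variance trend, a replicate block and leaving out each library were alternatives. The limma and edgeR fits of all 4 libraries, at their main settings, were tested on simulated data, and the other fits were not. The simulation gave all genes the same small spread and changed only genes at higher levels than most of these copies. It therefore says nothing of the fits under a gap like that between the vector libraries. Sums were compared with an exact permutation test, and the Clopper-Pearson intervals of sums and shares and the ratio intervals (95%) cover counting error only. A share or level at 0 was limited by 3 counts. The same-numbered libraries did not deviate together (correlation -0.002 across genes), so the numbers were not used as pairs.

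Copies with a mean of at least 1 CPM were named with all values, others where a group of copies was described. Copy positions and the HTR2C exons came from GENCODE version 44 and sequences from hg38, and windows were searched in 25 chromosomes. The members and all gene lists were chosen with earlier results of these data known.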

Additional observations from a re-analysis of the deposited data

How the results depend on the processing

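Over all genes, limma called 1 gene. It called 0 with a pseudocount of 0.1 CPM or with no filter, 28 with TMM factors, 31 with DESeq2 size factors and 29 with a mean-variance trend, and edgeR called 72 and DESeq2 37. Without each library in turn the count was 9 to 79 with limma. With edgeR, chosen after seeing the data, it was 46 without vector replicate 1, 99 without vector replicate 2, 3 without CD95L replicate 1 and 6 without CD95L replicate 2. Of the 14 copies tested, limma called 0, and 2 with TMM factors, 3 with DESeq2 size factors and 1 with a trend, while edgeR called 14 and DESeq2 6. Without 1 library the count was 0 to 14, with limma as with edgeR. limma called 14 only without vector replicate 2, and edgeR called 14 without vector replicate 2, 4 without vector replicate 1 and 0 without either CD95L library. With the replicate number as a block limma called 80 genes and all 14 copies, although same-numbered libraries share only a number. The cause of these shifts was not tested. A fit without 1 library assumed that the lone library of that group varied like the other group. The summed SNORD116 difference of -3.79 ran from -5.28 to -2.30 without 1 library and the SNORD115 difference of -3.50 from -5.07 to -1.93, both nearest 0 without vector replicate 1. Without its leading copy the difference was -3.75 for SNORD116 and -3.30 for SNORD115. The block cannot change these differences, because each replicate number occurs once in each group. Each family had 20 to 39 reads in each CD95L library, at depths close to those of the vector libraries, which limits what can be said of single copies there.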

Other observations

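In GENCODE version 44, 35 of the 78 copies (26 of SNORD116 and 9 of SNORD115) overlap an exon of SNHG14, the long host transcript, on the same strand, and 20 of these 35 had a read. The annotation behind the deposited counts is not given in the sources used here, so what became of reads that fall in both features is not known.

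SNORD116-27, just under the named copies, had 90 and 4 reads in vector replicates 1 and 2 and 2 and 3 reads in CD95L replicates 1 and 2, so that vector replicate 2 was close to the CD95L libraries. Its ratio between the vector libraries, 22.7 (8.57 to 85.2), was the widest among the 24 copies with at least 40 reads in vector replicate 1. SNORD116-11, SNORD115-23 and SNORD116-4 had both boxes and unique sequence but no read in any library, which allows up to 0.133 CPM in CD95L replicate 2.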
